A study of Homo sapiens with 30 samples.

Results

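HBEGF, NKAPL, GPER1, RASSF4, MCEMP1, RENBP and NXT2 are 7 genes picked from earlier results on these same libraries, because each had been called higher with decitabine in all 5 leukaemia lines of the study. They are 7 of the 60554 gene identifiers in the count files. All 7 passed the filter on low counts, among 15081 genes that did. RNA was taken from human leukaemia lines of the T-cell acute lymphoblastic type, named Loucy, MOLT-16, PEER, PER-117 and TALL-1. Every line gave 3 libraries of cells kept for 48 h with decitabine at 1 µM and 3 of cells kept with its vehicle, dimethyl sulfoxide (DMSO), which makes 30 libraries in 10 groups. Both groups of a line carry the same genome, and nothing was added to the DMSO group other than the vehicle, as far as the labels say. Nothing in the labels tells whether replicates were grown as separate cultures, so the spread between them is possibly technical, and the p-values cover only that spread. The question was which changes the lines share when decitabine is given, and how far the size of the response of these 7 genes differs from line to line.

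Decitabine is a cytidine analogue that is built into new DNA, where it traps DNA methyltransferases, so that methylation is lost over cell divisions. Methylated CG-rich promoters are silent in many leukaemias, and genes that are silenced in this way are often read again after the drug. The 7 genes do not belong to a common pathway. HBEGF encodes a growth factor of the EGF family, which is made as a membrane protein and shed by metalloproteases to act on EGFR and ERBB4. GPER1 encodes a G protein-coupled receptor that responds to oestrogen. RASSF4 encodes an adaptor with a Ras association domain and a SARAH domain, through which proteins of its family bind the Hippo kinases. NKAPL is a relative of NKAP, a nuclear protein that represses NOTCH targets and acts in T-cell development, and in the mouse Nkapl is needed for sperm formation. NXT2 encodes a partner of the mRNA export receptor NXF1. RENBP encodes the renin-binding protein, an epimerase that interconverts N-acetylglucosamine and N-acetylmannosamine. MCEMP1 encodes a small membrane protein known from mast cells and other myeloid cells.

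The libraries held 2.2 to 15.4 M reads on the strand of the gene, with the fewest in MOLT-16 (2.2 to 5.26 M) and the most in Loucy (10.2 to 15.4 M) and PER-117 (9.93 to 15 M). The T-cell label was checked on 25 markers, of which 14 to 24 averaged at least 1 read per M reads (CPM) in each of the 10 groups. The fewest were found in DMSO-treated Loucy and PER-117, where CD8B had 0 reads. Mixing of lines was checked in the DMSO libraries only, and the decitabine libraries were not checked. In all, 3 DMSO libraries also held reads of another line. Genes restricted to PEER were found at 13.2% of their PEER level in TALL-1 DMSO replicate 3 and at 18.7% in MOLT-16 DMSO replicate 3, and genes restricted to MOLT-16 at 9.36% of their MOLT-16 level in PEER DMSO replicate 2, with 4 of 4 such genes detected in each case. The 1 gene restricted to TALL-1 was at 2.86% of its TALL-1 level in PEER DMSO replicate 2 and at 1.28% in MOLT-16 DMSO replicate 3. The other 12 DMSO libraries held such sets at no more than 0.444% of their level. These 3 libraries are called mixed here. Values of the 7 genes are given with and without them, as are changed calls within a line of the named neighbours and list genes. Other named genes are given with all libraries only. The part of the mixing in any single value was not tested.

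The starts of the 7 genes are shown because the methylation that is lost after decitabine lies on CG dinucleotides. Each sequence is 300 bases of RefSeq (GRCh38.p14), from 250 bases before to 50 bases after an annotated start, written 5′ to 3′ on the strand of the gene in lower case with every CG in capitals. All 7 genes were matched, with 10 starts between them. CG is its own reverse complement, so a count on either strand is the same, and no other motif was searched. Over 35116 promoters of this length the median was 14 CG, with quartiles at 4 and 28, and 96.0% held at least 1. HBEGF had 38 CG and RASSF4 had 36, counts that 9.9% and 12.7% of all promoters reach. NKAPL had 21, the first start of GPER1 had 22 and RENBP had 15. MCEMP1 had 9 and the second start of GPER1 had 6, counts that 58.4% and 66.3% of all promoters reach, and the 3 starts of NXT2 had 8, 8 and 21. The 7 genes thus span CG-dense and CG-poor starts. Reads from the 3′ ends of transcripts do not tell which start was used, methylation was not measured in these libraries, and nothing is drawn here from the counts about regulation. The starts with the most CG, those of the genes nearest to 0 reads in DMSO, and the CG-poor start of MCEMP1 read as follows.
HBEGF, chr5:140346554-140346853, minus strand: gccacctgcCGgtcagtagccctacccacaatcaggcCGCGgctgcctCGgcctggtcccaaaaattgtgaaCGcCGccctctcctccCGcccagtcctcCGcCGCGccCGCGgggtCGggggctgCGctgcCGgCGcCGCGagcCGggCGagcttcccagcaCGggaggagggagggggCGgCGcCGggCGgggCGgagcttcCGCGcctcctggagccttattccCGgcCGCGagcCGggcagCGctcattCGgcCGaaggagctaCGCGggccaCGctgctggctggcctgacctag
RASSF4, chr10:44959552-44959851, plus strand: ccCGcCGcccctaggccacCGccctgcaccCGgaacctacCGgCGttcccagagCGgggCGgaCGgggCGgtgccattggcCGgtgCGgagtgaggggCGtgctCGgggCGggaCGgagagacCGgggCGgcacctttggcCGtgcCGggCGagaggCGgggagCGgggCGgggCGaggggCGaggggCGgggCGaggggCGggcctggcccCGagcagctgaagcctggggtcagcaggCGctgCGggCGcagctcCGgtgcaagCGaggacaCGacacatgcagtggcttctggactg
NKAPL, chr6:28259047-28259346, plus strand: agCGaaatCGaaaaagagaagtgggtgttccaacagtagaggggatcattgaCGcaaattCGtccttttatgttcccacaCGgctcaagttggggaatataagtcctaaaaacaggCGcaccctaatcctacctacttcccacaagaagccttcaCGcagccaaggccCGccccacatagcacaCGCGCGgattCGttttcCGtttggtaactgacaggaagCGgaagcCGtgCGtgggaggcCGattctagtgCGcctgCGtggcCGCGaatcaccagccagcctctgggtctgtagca
GPER1 start 1, chr7:1086868-1087167, plus strand: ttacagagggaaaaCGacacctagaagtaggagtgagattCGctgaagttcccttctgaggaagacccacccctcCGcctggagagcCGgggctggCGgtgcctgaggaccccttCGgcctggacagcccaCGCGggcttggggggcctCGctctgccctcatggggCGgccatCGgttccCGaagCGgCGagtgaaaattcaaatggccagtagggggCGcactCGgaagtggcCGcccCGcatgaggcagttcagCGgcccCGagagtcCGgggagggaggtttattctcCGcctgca
GPER1 start 2, chr7:1087863-1088162, plus strand: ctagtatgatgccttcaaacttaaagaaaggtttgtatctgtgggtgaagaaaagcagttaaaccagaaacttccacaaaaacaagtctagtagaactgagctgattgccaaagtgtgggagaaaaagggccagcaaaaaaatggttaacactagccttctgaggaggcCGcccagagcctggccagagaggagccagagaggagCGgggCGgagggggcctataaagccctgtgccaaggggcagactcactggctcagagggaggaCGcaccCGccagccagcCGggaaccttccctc
MCEMP1, chr19:7676840-7677139, plus strand: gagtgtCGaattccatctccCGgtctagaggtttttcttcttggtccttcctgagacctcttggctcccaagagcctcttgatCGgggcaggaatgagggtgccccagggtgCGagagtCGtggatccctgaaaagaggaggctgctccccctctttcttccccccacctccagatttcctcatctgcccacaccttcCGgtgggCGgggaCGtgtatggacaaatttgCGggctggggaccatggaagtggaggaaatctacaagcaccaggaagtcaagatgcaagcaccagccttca

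**Figure D1:**
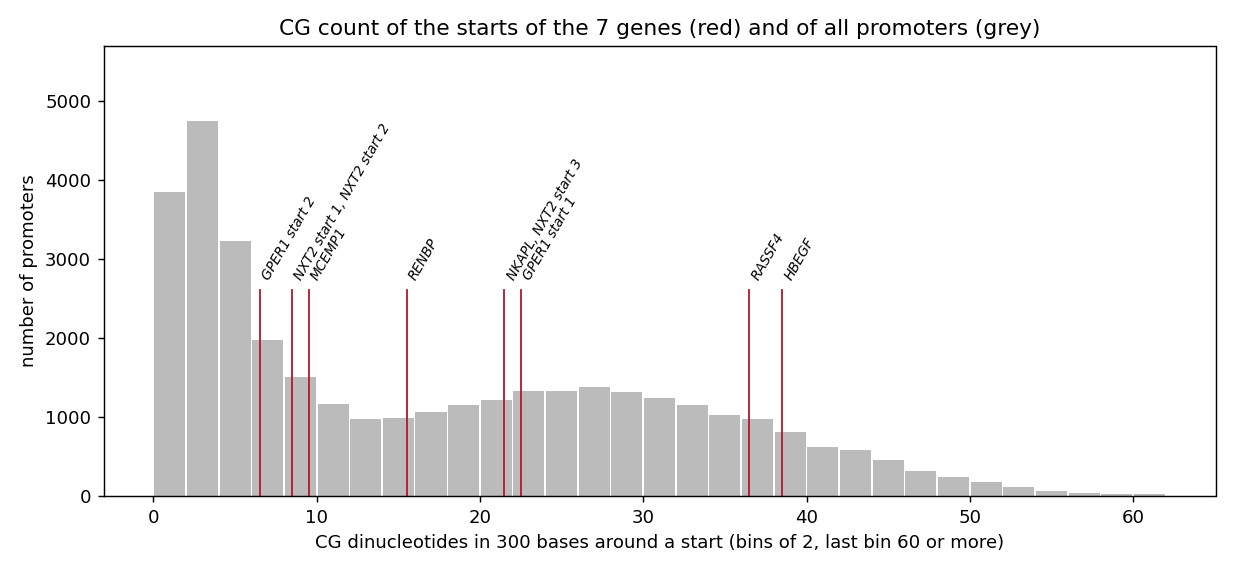
Number of CG dinucleotides in the 300 bases around a start (x axis) for all 35116 promoters (grey bars, number of promoters on the y axis) and for the 10 starts of the 7 genes (red lines). HBEGF and RASSF4 lie at 38 and 36 CG, and the second start of GPER1 lies at 6.

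Levels below are CPM, that is reads per M reads on library sizes scaled by TMM, and a log2 change is decitabine over DMSO from the edgeR fit, given with its approximate standard error (SE). Because decitabine against DMSO is the comparison that chose the genes, their levels and changes are a description and carry no test. The F tests of a difference in response between the lines are computed from these same changes, so they are not independent of how the genes were chosen. In bulk RNA, a higher level in every cell and a high level in a few cells cannot be told apart.

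HBEGF, the ligand, was higher with decitabine at every starting level, from PER-117, where it was almost unread with DMSO, to Loucy, where it was plainly read. In Loucy it had 46.4, 54.2 and 47.8 CPM with decitabine, against 16.5, 15.5 and 17.3 CPM with DMSO. In MOLT-16 it had 27.6, 19.6 and 23.3 CPM with decitabine, against 12, 8.93 and 12.4 CPM with DMSO. In TALL-1 the libraries held 7.59, 13.3 and 10.7 CPM with decitabine, against 2.36, 0.984 and 3.04 CPM with DMSO. The groups did not overlap in any of these lines, and the 3 libraries of a group lay close together in Loucy. PEER had 5.81, 6.22 and 6.03 CPM with decitabine, against 0.472, 2.48 and 0.826 CPM with DMSO. PER-117 had 1.41, 1.14 and 3.04 CPM with decitabine, against 0.112, 0 and 0.108 CPM with DMSO, which came from 64 reads with decitabine and 2 reads with DMSO. In PEER the highest DMSO value, 2.48 CPM, was that of the mixed replicate 2, and the part of the mixing in it was not tested. The log2 change was 4.41 ± 0.70 in PER-117, 2.27 ± 0.42 in PEER, 2.27 ± 0.37 in TALL-1, 1.59 ± 0.25 in Loucy and 1.09 ± 0.29 in MOLT-16. Without the mixed libraries it was 3.24 in PEER and 2.63 in TALL-1, and in MOLT-16 it was 1.15. In PER-117 the ratio of reads was 25.5, with a 95% counting interval of 6.77 to 215. With decitabine the lines followed the order Loucy, MOLT-16, TALL-1, PEER and PER-117, and no neighbours in that order overlapped. With DMSO the order was the same, with an overlap between TALL-1 and PEER. The size of the response differed between the lines (edgeR quasi-likelihood F test, F = 5.1, adjusted p = 0.0323), and more so without the mixed libraries (adjusted p = 0.00226).

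GPER1, the oestrogen-responsive receptor, reached several CPM or more with decitabine in all 5 lines, and stayed under 1 CPM in every DMSO library. Loucy stood apart, with 23.1, 21.2 and 33.9 CPM with decitabine, against 0, 0 and 0 CPM with DMSO. These values came from 1114 reads against 0 reads, so the level was at least 398-fold higher, counted against a floor of 3 reads over the DMSO group. PER-117 had 3.77, 3.69 and 4.52 CPM with decitabine, against 0, 0 and 0.108 CPM with DMSO, where the DMSO value came from 1 read. MOLT-16 had 9.21, 10.3 and 5.13 CPM with decitabine, against 0.255, 0.298 and 0 CPM with DMSO, with 2 DMSO reads. In all 3 lines the DMSO libraries were at or next to 0. TALL-1 had 10.1, 5.84 and 6.88 CPM with decitabine, against 0.215, 0.738 and 0.716 CPM with DMSO. PEER had 5.26, 4.92 and 9.85 CPM with decitabine, against 0, 0.763 and 0.62 CPM with DMSO. The groups did not overlap in any line, and the lowest decitabine value of any library, 3.69 CPM, was above the highest DMSO value of any library, 0.763 CPM. The fitted log2 change was 3.85 ± 0.55 in PEER and 3.72 ± 0.53 in TALL-1. For the lines with 0 to 2 DMSO reads the ratio of reads is the value to read, which was 111 in PER-117 (95% counting interval 19.5 to 4402) and 50.1 in MOLT-16 (13.4 to 420). The fitted log2 changes, 6.27 ± 0.72 in PER-117, 5.49 ± 0.70 in MOLT-16 and 10.69 ± 0.63 in Loucy, rest on the fit's prior count. Without PER-117 DMSO replicate 3, the library with the only read, the fitted change in PER-117 was 7.98. Without its mixed library PEER had a ratio of 22.4 (7.45 to 110) in place of 14.1 (6.6 to 35.8), TALL-1 had 16.1 (6.11 to 60.4) in place of 13.2 (6.47 to 31.5), and MOLT-16 had 30.4 (8.16 to 256). With decitabine Loucy was the highest line and PER-117 the lowest, and MOLT-16, TALL-1 and PEER overlapped between them. With DMSO each line overlapped with the next in order. With under 1 CPM in every DMSO library, GPER1 passed the filter on low counts through its decitabine libraries. The response was called different between the lines (F = 10.1, adjusted p = 0.00176 by edgeR), with Loucy at 0 DMSO reads. Without the mixed libraries this difference was weaker (F = 6.5, adjusted p = 0.00581 by edgeR).

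RASSF4, the Ras association domain adaptor, was read with DMSO in every line but PER-117. PEER had 13.5, 14 and 12.1 CPM with decitabine, against 5.35, 5.72 and 7.44 CPM with DMSO. TALL-1 had 9.89, 5.69 and 8.41 CPM with decitabine, against 1.93, 2.71 and 4.48 CPM with DMSO. MOLT-16 had 18, 26.4 and 12.6 CPM with decitabine, against 7.41, 10.4 and 4.9 CPM with DMSO. The groups did not overlap in these lines, although the lowest decitabine value lay close above the highest DMSO value in TALL-1 and in MOLT-16. Loucy had 16.7, 13.4 and 17 CPM with decitabine, against 1.71, 1.93 and 2.25 CPM with DMSO. PER-117 had 0.814, 0.568 and 0.922 CPM with decitabine, against 0, 0 and 0 CPM with DMSO, from 27 reads against 0 reads, which is at least 7.17-fold higher against a floor of 3 reads. Loucy and PER-117 were the lines with the least RASSF4 under DMSO. The log2 change was 2.99 ± 0.28 in Loucy, 1.33 ± 0.30 in MOLT-16, 1.33 ± 0.34 in TALL-1 and 1.11 ± 0.29 in PEER, and the fitted value in PER-117, 5.64 ± 1.04, depends on the prior count. With decitabine the order was MOLT-16, Loucy, PEER, TALL-1 and PER-117, where MOLT-16, Loucy and PEER overlapped along the order. With DMSO it was MOLT-16, PEER, TALL-1, Loucy and PER-117, where MOLT-16 overlapped PEER and TALL-1 overlapped Loucy. By mean, Loucy ranked above PEER and TALL-1 only with decitabine, and there it overlapped PEER. When the mixed libraries were left out, the log2 change was 1.09 in PEER, 1.75 in TALL-1 and 1.04 in MOLT-16. The response differed between the lines (F = 9.8, adjusted p = 0.00201 by edgeR).

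NKAPL, the relative of NKAP, was the gene with the fewest reads. Over the 15 libraries of each treatment it had 227 reads with decitabine and 8 reads with DMSO, so it passed the filter through its decitabine libraries. PER-117 had 25, 19 and 39 reads with decitabine, against 0, 0 and 0 reads with DMSO. PEER had 34, 8 and 8 reads with decitabine, against 2, 1 and 0 reads with DMSO. Loucy had 21, 21 and 22 reads with decitabine, against 0, 1 and 2 reads with DMSO. Every decitabine library of these lines held NKAPL, and the groups did not overlap in CPM. TALL-1 had 6, 5 and 7 reads with decitabine, against 0, 0 and 2 reads with DMSO. MOLT-16 had 7, 0 and 5 reads with decitabine, against 0, 0 and 0 reads with DMSO. In MOLT-16 decitabine replicate 2 was at 0 like the DMSO libraries, so the groups overlapped there. In TALL-1 both DMSO reads were in the mixed replicate 3. In CPM the decitabine means were 2.57 ± 0.506 in PEER, 2.42 ± 1.02 in PER-117, 1.6 ± 0.983 in TALL-1, 1.49 ± 0.259 in Loucy and 1.12 ± 1.01 in MOLT-16 (SD, n = 3 each), and each line overlapped with the next in that order. Against a floor of 3 reads the level was at least 22-fold higher in PER-117 and at least 4.94-fold higher in MOLT-16. The MOLT-16 value came from only 12 decitabine reads, whose own counting error it leaves out. The ratio of reads was 22.9 in Loucy (95% counting interval 7.48 to 114), 15.2 in PEER (4.91 to 76.2) and 9.44 in TALL-1 (2.26 to 83.9), where the level was at least 3.84-fold higher without the mixed library. With the mixed library of each line left out, the ratio was 15.5 (4.08 to 132) in PEER and the level in MOLT-16 was at least 3.01-fold higher. At this depth no difference of the response between the lines was called (F = 1.5, adjusted p = 0.392 by edgeR), which does not show that the lines respond alike. NKAP, the related gene, was called in no line, with log2 changes of -0.21 to 0.21 at 22 to 43.7 CPM with decitabine and 25.5 to 39 CPM with DMSO.

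NXT2, the partner of the export receptor NXF1, was well read in every library, and in PEER, TALL-1, MOLT-16 and Loucy it had the smallest log2 change of the 7 genes. Loucy had 124, 125 and 138 CPM with decitabine, against 54.6, 68.4 and 64 CPM with DMSO. MOLT-16 had 97.2, 70.5 and 90 CPM with decitabine, against 45.2, 37.2 and 44.3 CPM with DMSO. TALL-1 had 90.1, 70.5 and 84.5 CPM with decitabine, against 56.9, 48.2 and 53.5 CPM with DMSO. The groups did not overlap in these lines. PEER had 72.9, 76.7 and 70.5 CPM with decitabine, against 48.3, 37 and 45.9 CPM with DMSO. PER-117 had 79.3, 73.8 and 88.1 CPM with decitabine, against 21.2, 25 and 24.2 CPM with DMSO. PER-117 had the lowest DMSO level of the 5 lines, with no overlap with the next line, MOLT-16. With decitabine its values overlapped those of TALL-1 and PEER, and Loucy was above all others. The log2 change was 1.77 ± 0.14 in PER-117, 1.05 ± 0.13 in Loucy, 1.03 ± 0.14 in MOLT-16, 0.75 ± 0.14 in PEER and 0.62 ± 0.14 in TALL-1. The mixed libraries made little difference, with log2 changes of 0.66, 0.63 and 1.04 in PEER, TALL-1 and MOLT-16 without them. The response differed between the lines (F = 10.5, adjusted p = 0.00118 by edgeR). NXT1, its paralogue, was called in no line. NXT1 averaged 79.8 ± 3.6 CPM with decitabine and 109 ± 6.11 CPM with DMSO in PEER, and 84.3 ± 11.3 CPM with decitabine and 122 ± 8.08 CPM with DMSO in TALL-1 (SD, n = 3 each). Its log2 change was -0.53 in TALL-1 (adjusted p = 0.0541 by edgeR), the lowest adjusted p of the 5 lines, and 0.11 in MOLT-16.

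RENBP, the epimerase, was higher with decitabine both where it was read with DMSO and where it was nearly absent. PEER had 9.8, 7 and 10.2 CPM with decitabine, against 3.31, 2.67 and 4.13 CPM with DMSO. TALL-1 had 8.74, 9.58 and 5.73 CPM with decitabine, against 1.5, 1.23 and 1.43 CPM with DMSO. PER-117 had 4.14, 4.26 and 6.18 CPM with decitabine, against 1.68, 2.09 and 1.62 CPM with DMSO. In these lines the lowest decitabine value was well above the highest DMSO value. MOLT-16 had 2.74, 2.45 and 1.18 CPM with decitabine, against 0.255, 0 and 0.64 CPM with DMSO, from 22 reads against 4 reads, of which 3 were in the mixed replicate 3. Loucy had 0.338, 0.964 and 0.886 CPM with decitabine, against 0.197, 0 and 0.0683 CPM with DMSO, from 32 reads against 4 reads. The groups did not overlap in either line, but the values rest on few reads. The log2 change was 2.88 ± 0.62 in Loucy, 2.69 ± 0.69 in MOLT-16, 2.55 ± 0.41 in TALL-1, 1.43 ± 0.35 in PER-117 and 1.42 ± 0.35 in PEER. Single libraries moved it by more than 1.5-fold in 2 lines: it was 3.84 in MOLT-16 without DMSO replicate 3, and 3.96 in Loucy without DMSO replicate 1. Leaving the mixed libraries out gave 3.85 in MOLT-16, 2.58 in TALL-1 and 1.31 in PEER. The ratio of reads was 8.58 in Loucy (95% counting interval 3.04 to 33.4) and 6.8 in MOLT-16 (2.31 to 27.1). With decitabine PEER, TALL-1 and PER-117 overlapped along the order, above MOLT-16 and Loucy, and with DMSO the order was PEER, PER-117, TALL-1, MOLT-16 and Loucy. No difference of the response between the lines was called (F = 2.4, adjusted p = 0.199 by edgeR).

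MCEMP1, the mast cell membrane protein, was the gene nearest to the threshold of the rule. PER-117 had 6.58, 7.29 and 6.36 CPM with decitabine, against 2.68, 2.3 and 2.16 CPM with DMSO. PEER had 4.08, 5.18 and 6.99 CPM with decitabine, against 0.472, 2.1 and 0.62 CPM with DMSO. MOLT-16 had 3.33, 6.36 and 5.92 CPM with decitabine, against 1.53, 0.596 and 0.853 CPM with DMSO. The groups did not overlap in these lines, and in PEER the highest DMSO value was that of the mixed replicate 2, a further value in which the part of the mixing was not tested. Loucy had 1.22, 1.33 and 1.21 CPM with decitabine, against 0, 0.0584 and 0.0683 CPM with DMSO, from 55 reads against 2 reads. TALL-1 had 2.76, 1.65 and 0.765 CPM with decitabine, against 0.215, 0.984 and 0.358 CPM with DMSO, from 25 reads against 7 reads. In TALL-1 the groups overlapped: decitabine replicate 3 lay below DMSO replicate 2. The log2 change was 4.44 ± 0.64 in Loucy, 2.30 ± 0.45 in PEER, 2.28 ± 0.51 in MOLT-16, 1.85 ± 0.62 in TALL-1 and 1.50 ± 0.34 in PER-117. In Loucy the ratio of reads was 29.5 (95% counting interval 7.78 to 250). Without the mixed libraries the log2 change was 3.25 in PEER and 2.11 in MOLT-16. In TALL-1 it was 1.63 without them and the call was lost (adjusted p = 0.101 by edgeR), as it was when decitabine replicate 1 or 2 or DMSO replicate 1 or 3 was left out. With decitabine the order was PER-117, PEER, MOLT-16, TALL-1 and Loucy, with MOLT-16 clear of TALL-1. With DMSO the order was the same, with PER-117 clear of PEER and TALL-1 clear of Loucy. A difference of the response between the lines was not called on all libraries (F = 3.7, adjusted p = 0.0818 by edgeR), and was called without the mixed ones (adjusted p = 0.0164).

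**Figure D2:**
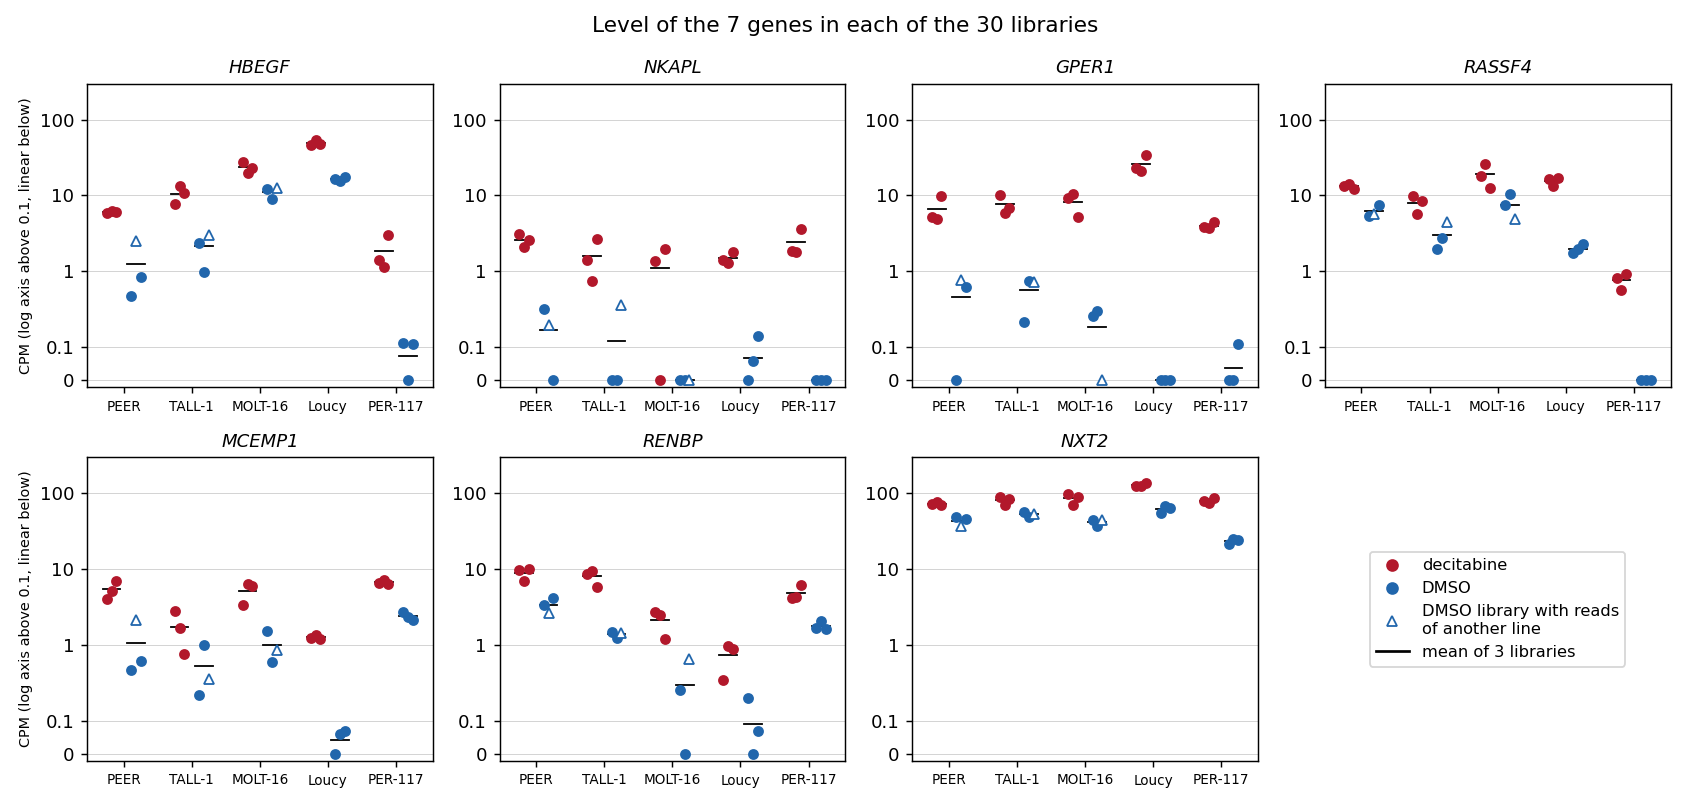
CPM of each of the 7 genes (1 panel each, y axis logarithmic above 0.1 and linear below) in the 30 libraries, by line and treatment; bars are means of 3 libraries, and open triangles are the mixed DMSO libraries. Decitabine libraries lie above the DMSO libraries of the same line except for NKAPL in MOLT-16 and MCEMP1 in TALL-1, and GPER1 in Loucy had 21.2 to 33.9 CPM with decitabine against 0 with DMSO.

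The strand of the reads was that of the genes. Over the 15 libraries of each treatment, HBEGF had 2740 reads with decitabine and 958 reads with DMSO on its own strand and 0 on the opposite strand. GPER1 had 1543 with decitabine and 18 with DMSO on its own strand, and 4 with decitabine and 1 with DMSO on the opposite strand. RASSF4, which holds another gene on the opposite strand, had 23 opposite reads with decitabine and 6 with DMSO, beside 1230 with decitabine and 324 with DMSO on its own strand. The opposite strand thus added next to nothing to the levels of these genes.

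Because the rule asked for a call in all 5 lines, its values are given here as they stood and support nothing. A call is an adjusted p under 0.05 by the quasi-likelihood test of edgeR, adjusted over all genes tested by the Benjamini-Hochberg method. By it, 3.54% of the genes tested were called higher with decitabine in PEER, 6.74% in TALL-1, 2.19% in MOLT-16, 10.6% in Loucy and 8.67% in PER-117, and 10 genes, or 0.0663%, were called higher in all 5 lines. The 7 genes described here are among these 10. The genes just inside the threshold were MCEMP1, whose highest adjusted p over the 5 lines was 0.0454 (in TALL-1), NKAPL at 0.0419 and HBEGF at 0.0341 (both in MOLT-16). Those just outside were CPLX1 at 0.0523, FLCN at 0.0573 and CRELD2 at 0.0592, each called in 4 lines and missed in MOLT-16. Their calls without the mixed libraries are not given here. GPER1 lay farthest inside of the 7, at 0.000117. The line that set the highest value was MOLT-16 for HBEGF, NKAPL and RENBP, PEER for RASSF4 and GPER1, and TALL-1 for NXT2 and MCEMP1, which are the 3 lines with the fewest reads and the mixed libraries. Without the mixed libraries 33 of 15741 genes tested were called higher in all 5 lines, 6 of the 7 genes among them and MCEMP1 not, and 9 genes were called in all lines both with and without them.

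The response was called different between the lines for 4 of the 7 genes, HBEGF, GPER1, RASSF4 and NXT2, beside 13.6% of all genes tested (edgeR quasi-likelihood F test on 4 degrees of freedom). The 7 were chosen for a change in every line and all genes were not, so nothing is read from that difference in shares. Without the mixed libraries the adjusted p of this F test rose to 0.00581 for GPER1. It was then 0.000225 for RASSF4, 0.000203 for NXT2, 0.104 for RENBP and 0.467 for NKAPL. PER-117 had the largest fitted log2 change for NXT2 and, from 2 DMSO reads, for HBEGF. Loucy had it for MCEMP1, also from 2 DMSO reads, and for GPER1, from 0 DMSO reads. For RASSF4 and NKAPL no line can be put first: PER-117, with 0 DMSO reads, has only a bound of at least 7.17-fold for RASSF4 and of at least 22-fold for NKAPL, and the ratio of reads in Loucy was 7.94 for RASSF4 and 22.9 for NKAPL. For RENBP the changes in Loucy, MOLT-16 and TALL-1 lay within their SE of each other, and without the mixed libraries that of MOLT-16 was the largest (3.85). With DMSO, the level itself was called different between the lines for 6 of the 7 genes, all but NKAPL, in a test of the DMSO libraries alone. This share is close to the 91.6% of all genes tested that differed, so it is not a result about these genes. The largest F was that of HBEGF (F = 79.0, adjusted p = 1.2e-13 by edgeR), whose DMSO levels ran from 15.5 to 17.3 CPM in Loucy down to 0 to 0.112 CPM in PER-117. Without the mixed libraries the F of HBEGF was 106.0 (adjusted p = 7.59e-17 by edgeR). For GPER1, with 18 DMSO reads in all, F was 6.2 (adjusted p = 0.00161 by edgeR), and 3.8 without the mixed libraries (adjusted p = 0.0155). For NKAPL, with 8 DMSO reads in all, F was 1.6 (adjusted p = 0.21 by edgeR), and 1.3 without them (adjusted p = 0.309).

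**Figure D3:**
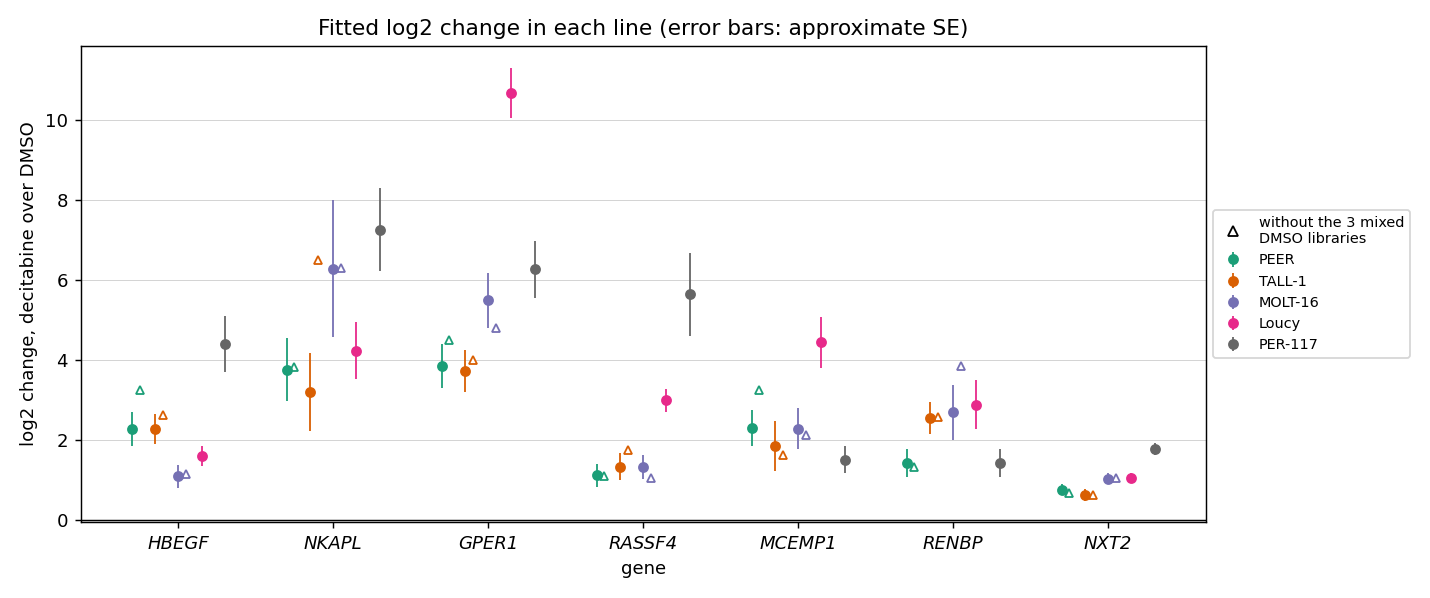
Fitted log2 change, decitabine over DMSO (y axis), of the 7 genes (x axis) in each line, with bars for the approximate SE; open triangles give PEER, TALL-1 and MOLT-16 without the 3 mixed DMSO libraries. All changes lie above 0, from 0.62 for NXT2 in TALL-1 to 10.69 for GPER1 in Loucy, and NXT2 has the narrowest range.

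The genes next to the 7 were not used by the rule. GENCODE 29 places HBEGF at chr5:140332843-140346631 on the minus strand, NKAPL at chr6:28259320-28260958 on the plus strand, GPER1 at chr7:1082208-1093815 on the plus strand, RASSF4 at chr10:44959407-44995891 on the plus strand, MCEMP1 at chr19:7676628-7679826 on the plus strand, RENBP at chrX:153935263-153944691 on the minus strand and NXT2 at chrX:109535781-109544690 on the plus strand (GRCh38). Of 19 genes that overlap them or are nearest on either side, 13 were tested. In single lines 1 to 3 of the 13 were called higher, where 2.19% (MOLT-16) to 10.6% (Loucy) of all genes were, and 8 of the 13 were called in no line in either direction. Lower calls made up 0.961% of all genes in PEER, 6.12% in TALL-1, 1.01% in MOLT-16, 4.13% in Loucy and 3.16% in PER-117. The only lower call among the neighbours was HCFC1, a transcription cofactor beside RENBP, in TALL-1 (log2 change -0.53).

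Beside GPER1, a transcript of the GENCODE class antisense, AC091729.2, ends 30 bases before the GENCODE start of GPER1 (chr7:1082208), on the same strand. The 2 RefSeq starts of GPER1 shown above lie farther along, at chr7:1086868-1087167 and chr7:1087863-1088162, and the GENCODE start is not among the sequences shown. AC091729.2 is described next. It had 0 reads in all 15 DMSO libraries, so it passed the filter on low counts only through its decitabine libraries, and its calls are a description. PER-117 had 14, 14 and 12 reads with decitabine, against 0, 0 and 0 reads with DMSO. Loucy had 21, 12 and 8 reads with decitabine, against 0, 0 and 0 reads with DMSO. TALL-1 had 11, 14 and 2 reads with decitabine, against 0, 0 and 0 reads with DMSO. In all 3 lines every decitabine library held it. MOLT-16 had 7, 1 and 6 reads with decitabine, against 0, 0 and 0 reads with DMSO. PEER had 4, 2 and 0 reads with decitabine, against 0, 0 and 0 reads with DMSO, and there it was not called (adjusted p = 0.162 by edgeR). It was called higher in the other 4 lines, with adjusted p from 0.000173 in Loucy to 0.0226 in MOLT-16. Since the DMSO groups were at 0, its fitted log2 changes depend on the prior count and are not given. C7orf50, which overlaps GPER1 on the opposite strand and had 23331 reads in all, was called in no line, with log2 changes of -0.33 to -0.18.

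Within the span of RASSF4, on the opposite strand, lies DEPP1, a gene known as a target of FOXO factors. TALL-1 had 10.8, 10.9 and 14.9 CPM with decitabine, against 0.215, 0 and 0.358 CPM with DMSO. Loucy had 13.2, 12.1 and 12.6 CPM with decitabine, against 0.197, 0 and 0.341 CPM with DMSO. PEER had 5.63, 8.29 and 3.18 CPM with decitabine, against 0.315, 0.763 and 0.826 CPM with DMSO. In these lines the decitabine libraries lay far above the DMSO libraries. PER-117 had 2.29, 3.5 and 3.97 CPM with decitabine, against 1.12, 1.04 and 1.08 CPM with DMSO, again with no overlap. MOLT-16 had 1 read in each decitabine library and 0 with DMSO, and was not called (adjusted p = 0.235 by edgeR). DEPP1 was called higher in the other 4 lines, with log2 changes of 6.08 in Loucy, 5.75 in TALL-1, 3.20 in PEER and 1.57 in PER-117. No DMSO library held more than 1.12 CPM of DEPP1, so it passed the filter on low counts through its decitabine libraries. Its calls, and the difference of its response between the lines (adjusted p = 0.000208 by edgeR), are a description. Counting used the strand, so reads of DEPP1 and RASSF4 were told apart. C10orf25, on the far side of RASSF4, was called higher in Loucy (log2 change 0.58) and PER-117 (0.93), and ZFAND2A, beyond GPER1, in PEER (1.15). PFDN1 beside HBEGF, ZKSCAN4 and ZSCAN26 beside NKAPL, RETN and TRAPPC5 beside MCEMP1, and NAA10, which lies 40 bases from RENBP, were called in no line. In MOLT-16 the only neighbour called was AC091729.2. Without the mixed libraries AC091729.2, DEPP1, C10orf25 and HCFC1 were called in the same lines, ZFAND2A was no longer called in PEER (adjusted p = 0.0505 by edgeR) and was called lower in MOLT-16 (log2 change -1.21), and RETN was called higher in TALL-1 (adjusted p = 0.00624 by edgeR).

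**Figure D4:**
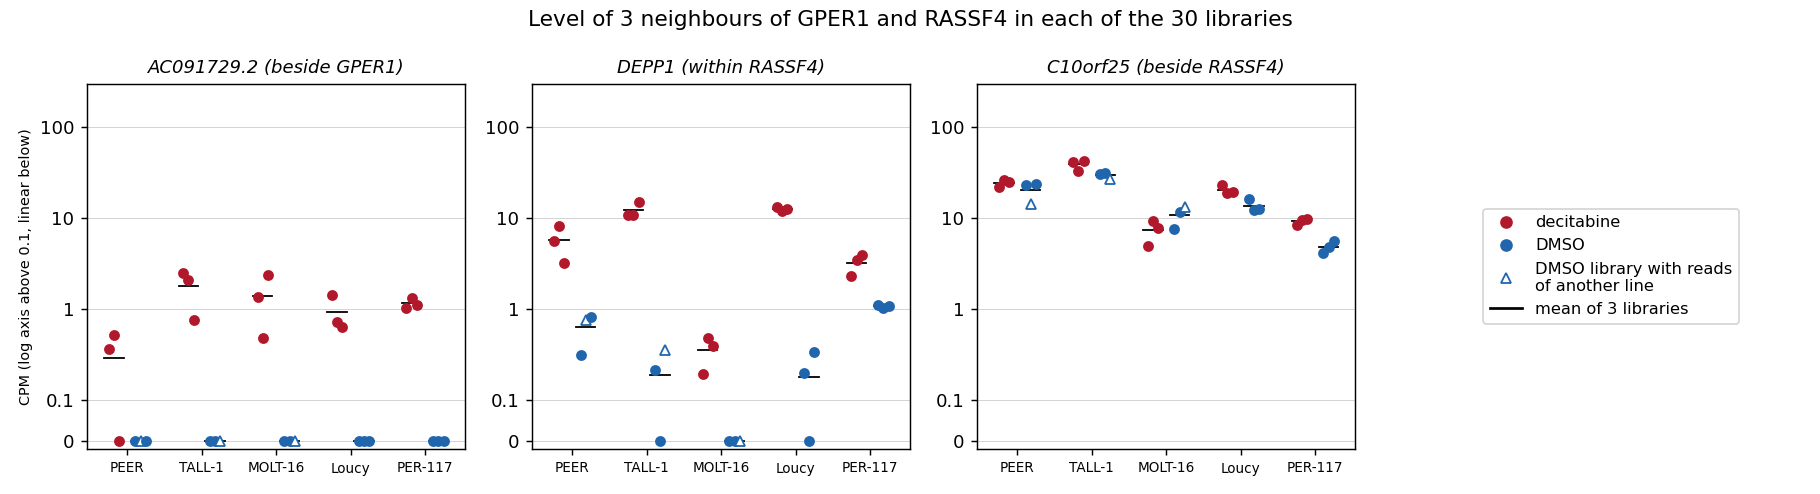
CPM of AC091729.2, DEPP1 and C10orf25 (1 panel each, y axis logarithmic above 0.1 and linear below) in the 30 libraries, by line and treatment; bars are means of 3 libraries, and open triangles are the mixed DMSO libraries. AC091729.2 lies at 0 in all 15 DMSO libraries, and DEPP1 has 12.1 to 13.2 CPM in Loucy with decitabine against 0 to 0.341 CPM with DMSO.

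The other genes of the pathways were followed with 7 lists of genes that do not include the 7. The median log2 change of all genes was -0.02 in PEER, -0.00 in TALL-1, -0.01 in MOLT-16, 0.03 in Loucy and 0.05 in PER-117. Of all genes tested, 3.54% were called higher in PEER, 6.74% in TALL-1, 2.19% in MOLT-16, 10.6% in Loucy and 8.67% in PER-117. Lower calls made up 0.961%, 6.12%, 1.01%, 4.13% and 3.16% in the same order. These shares are the background of all 7 lists, and no list was tested against them. Of 12 tested genes for ligands of the EGF family, their receptors and the proteases that shed them, 1 was called higher in PEER, 0 in TALL-1, 0 in MOLT-16, 2 in Loucy and 1 in PER-117, and 1 was called lower, in PER-117. The list medians ran from 0.02 in PER-117 to 0.45 in Loucy. CD9, a tetraspanin that binds the membrane form of HB-EGF, was called higher in Loucy (log2 change 1.91 ± 0.46, adjusted p = 0.00447) and PER-117 (2.90 ± 0.57, adjusted p = 0.000741 by edgeR). Of 18 tested genes of oestrogen receptors and GPER1 signalling, 0 were called higher in PEER, 1 in TALL-1, 3 in MOLT-16, 4 in Loucy and 4 in PER-117. In that list 1 gene was called lower in TALL-1, 1 in Loucy and 2 in PER-117. SRC, a kinase that acts downstream of GPER1, was called higher in MOLT-16 (log2 change 1.61 ± 0.44), Loucy (2.03 ± 0.55) and PER-117 (2.27 ± 0.60), with adjusted p of 0.0402, 0.0103 and 0.0115 by edgeR. In PEER and TALL-1 its log2 change was 0.44 and 0.40.

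In the list of RASSF family genes and Hippo kinases, 17 genes were tested, of which 1 was called higher in TALL-1, 2 in PER-117 and none in PEER, MOLT-16 or Loucy, and none lower. RASSF1, a relative of RASSF4, was called higher in TALL-1, with a log2 change of 1.50 ± 0.28, and had -0.77 in MOLT-16 and -0.59 in Loucy; its response differed between the lines (adjusted p = 0.000836 by edgeR). SAV1 (0.57 ± 0.18) and LATS2 (4.09 ± 1.00), a scaffold and a kinase of the Hippo pathway, were called higher in PER-117. Of 22 tested genes of amino sugar and sialic acid metabolism, the pathway of RENBP, 4 were called higher in PER-117, 2 in TALL-1, 1 each in PEER and Loucy and 0 in MOLT-16, and 2 were called lower in TALL-1 and 1 each in PEER and PER-117. NEU1, the lysosomal sialidase, was called higher in Loucy (1.08 ± 0.13), TALL-1 (0.66 ± 0.14) and PER-117 (0.41 ± 0.13). Of 26 tested genes of mRNA export by NXF1 and NXT, 2 were called higher in TALL-1 and none elsewhere, and 1 was called lower in TALL-1, 2 in Loucy and 1 in PER-117. DDX39A, a helicase that acts in export, was higher in TALL-1 (0.72 ± 0.16) and lower in Loucy (-0.53 ± 0.15) and PER-117 (-0.58 ± 0.15), and its response differed between the lines (adjusted p = 0.000568 by edgeR). The medians of the export list ran from -0.25 in Loucy to 0.07 in MOLT-16.

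Of 28 tested genes of NKAP and of NOTCH and RBPJ repression, none was called in PEER. Lower calls numbered 2 in TALL-1 and 4 in Loucy, and higher calls 1 in MOLT-16, 2 in Loucy and 2 in PER-117. NOTCH1, the receptor most often mutated in T-cell leukaemia, was called higher in MOLT-16 (log2 change 1.28 ± 0.25) and lower in TALL-1 (-0.85 ± 0.22), and its response differed between the lines (adjusted p = 0.000316 by edgeR). In Loucy RBPJ (-0.41), NCOR1 (-0.47), TBL1XR1 (-0.34) and HDAC2 (-0.62), which act in NOTCH target repression, were called lower, and MAML2 (3.44) and HEY1 (2.25) higher. SIN3A was lower in TALL-1 (-0.47), and NOTCH3 (2.93) and NRARP (3.03), a NOTCH target that dampens the pathway, were higher in PER-117.

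Mast cell and myeloid genes, the list of MCEMP1, had 19 genes tested, of which 6 were called higher in PEER, 0 in TALL-1, 2 in MOLT-16, 11 in Loucy and 3 in PER-117, and none was called lower in any line. The list medians were 1.58 in PEER, -1.46 in TALL-1, 0.59 in MOLT-16, 1.29 in Loucy and 0.51 in PER-117. Genes of the list that were silent with DMSO passed the filter only through groups where they were read. CEBPA, a transcription factor of myeloid cells, was called higher in Loucy (log2 change 6.07 ± 1.17), PEER (3.97 ± 0.49), MOLT-16 (2.65 ± 0.40) and PER-117 (1.40 ± 0.39), and had -1.48 in TALL-1, where it was not called (adjusted p = 0.306 by edgeR). HDC, which makes histamine, was called higher in PEER (5.74 ± 0.91), PER-117 (3.13 ± 0.51) and Loucy (2.72 ± 0.37). TYROBP, a signalling adaptor of myeloid and NK cells, was called higher in MOLT-16 (5.38 ± 1.10), Loucy (4.89 ± 0.69) and PER-117 (4.17 ± 0.69). Of 10 myeloid markers, 5 averaged at least 1 CPM with decitabine and 3 with DMSO in Loucy, 5 with decitabine and 1 with DMSO in PEER, 0 with decitabine and 1 with DMSO in TALL-1, 1 with either in MOLT-16, and 0 with either in PER-117. Their summed level was 39.1 to 42.2 CPM with decitabine and 12.2 to 15.7 CPM with DMSO in Loucy, and 13 to 15.8 CPM with decitabine and 2.69 to 3.63 CPM with DMSO in PEER. In PER-117, where MCEMP1 was highest, it was 1.2 to 1.7 CPM with decitabine and 0.894 to 1.94 CPM with DMSO. FCN1, a monocyte gene, had 0 reads with decitabine in all 5 lines. The part of these genes in the level of MCEMP1 was not tested.

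Several calls in the lists changed when the mixed libraries were left out. Of all genes, 4.7% were then called higher in PEER, 7.46% in TALL-1, 9.78% in MOLT-16, 14.5% in Loucy and 11.9% in PER-117. Lower calls then made up 0.896% of all genes in PEER, 6.49% in TALL-1, 7.93% in MOLT-16, 8% in Loucy and 5.6% in PER-117. In the list of RASSF4, RASSF1 was then called lower in MOLT-16 (log2 change -1.07) and Loucy (-0.60), LATS2 was also called higher in MOLT-16 (0.99), and 6 of 17 genes were higher in MOLT-16. CD9 was also called higher in PEER (1.92), and 6 of 13 genes of the EGF list were higher in Loucy. DDX39A was also called lower in MOLT-16 (-0.45), where 4 of 27 export genes were called higher, and 5 of them were lower in Loucy. HDC was also called higher in MOLT-16 (1.88). CEBPA had a log2 change of 1.09 in TALL-1 in place of -1.48, not called in either fit. Of 20 mast cell and myeloid genes, 9 were then called higher in PEER, 1 in TALL-1, 5 in MOLT-16, 13 in Loucy and 7 in PER-117, with 1 lower in MOLT-16 and 1 in Loucy, and the list median in TALL-1 was 0.00. The other named genes of the lists were called in the same lines in both fits.

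**Figure D5:**
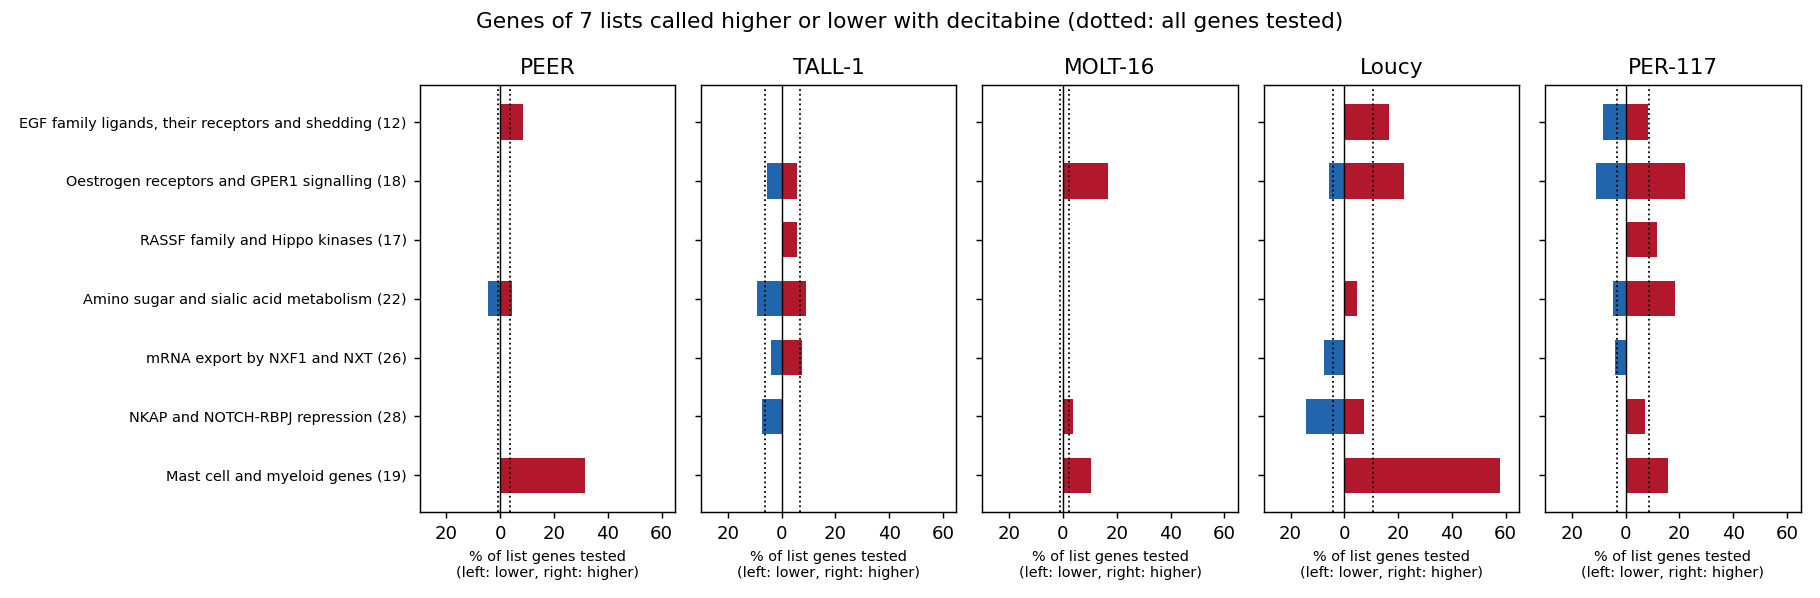
Share of the tested genes of each list (number tested in brackets) called higher (red, to the right) or lower (blue, to the left) with decitabine in each line, in percent; dotted lines are the shares of all genes tested. The longest bars are those of the mast cell and myeloid genes in Loucy (11 of 19) and PEER (6 of 19), and that list has no bar in TALL-1.

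Across the 30 libraries, which share lines and treatments, the pattern of each gene was set beside that of all other protein-coding genes by Pearson's r of log2 CPM, as a description. HBEGF was most like SERTAD2 (r = 0.939) and COL6A3 (0.904). RASSF4 was most like SFXN3 (0.935) and GRN (0.926), and GPER1 most like SDC4 (0.913) and PIWIL2 (0.813). For NKAPL the nearest were ADAMTS4 (0.881) and COL6A1 (0.875), for RENBP BRSK1 (0.888) and CA11 (0.851), for NXT2 WFS1 (0.888) and TSPAN14 (0.839), and for MCEMP1 PAOX (0.844) and DZIP3 (0.799). Of these genes, ADAMTS4, SDC4, PAOX and WFS1 were called higher in 4 lines and COL6A3 in 1. Among the 7 themselves, GPER1 and NXT2 were most alike (r = 0.82), then NKAPL and GPER1 (0.79). HBEGF and RENBP were least alike (r = -0.30): HBEGF was highest in Loucy and MOLT-16 and lowest in PER-117, and RENBP was highest in PEER and lowest in Loucy.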

How the data were processed

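RNA was measured in 30 libraries of a kit that reads the 3′ ends of polyadenylated RNA. Each deposited file gives the read counts of 1 library per gene, in 3 columns (strand ignored, strand of the gene, opposite strand). The authors used STAR 2.4.2a, DESeq2 and GRCh38 (hg38), per the submitters' processing notes, and no source names the annotation behind the counts. Reads on the gene's strand were 12.8 to 15.2 times those on the opposite strand, so that column was used. Rows that name no gene, 27.5% to 43.9% of a library's reads, were left out. Of 60554 identifiers, 56996 were matched to GENCODE 29. Groups were taken from the titles. For PEER DMSO, replicates 2 and 3 of the titles are replicates 3 and 2 of the file names, and the titles were followed. The members and the gene lists were chosen with earlier results of these data known.

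A single fit took all libraries with 10 group means (edgeR 4.0.16 in R 4.3.3, TMM scaling, filterByExpr at a minimum count of 10, quasi-likelihood F tests, 20 residual degrees of freedom). Benjamini-Hochberg adjustment was made over 15081 genes within each comparison. The SE was approximated from the log2 change and its F (their ratio, with the square root of F). Folds against 0 reads use a floor of 3 reads over the group. Counting intervals (95%, exact) and floors cover counting error only, and a floor covers only that of the DMSO reads. Named genes were the 7, the 3 nearest outside the threshold, overlapping and nearest genes, for each of the 7 the 2 protein-coding genes of highest Pearson r, NKAP and NXT1, and list genes called the same way in at least 3 lines (with none, those with the most calls). Libraries of a group were not duplicates (lowest chi-square over its degrees of freedom 2.13).

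Replicate numbers were checked for pairing by correlating the deviations of same-numbered decitabine and DMSO libraries over 7038 genes. In PER-117 r was 0.30, 0.40 and 0.52, and each decitabine library correlated best with its own number. PEER replicate 1 reached 0.45 while correlating better with another number, so r of this size does not settle pairing. The replicate block changed no call of the 7 in PER-117. In PEER (0.45, 0.15, -0.42), TALL-1 (-0.11, -0.30, -0.19) and Loucy (0.14, 0.01, -0.10) not every library correlated best with its own number. In MOLT-16 each library correlated best with its own number, but at low r (0.20, 0.27, 0.09), so pairing there is not settled. The main fit used no block in any line. Alternatives were RLE size factors, DESeq2 1.42.0, no filter, the unstranded column, no mixed libraries, a replicate block, each line alone, and leaving out each library.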

Additional observations from a re-analysis of the deposited data

Results flagged for a closer look

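Responses that differed in size between the 5 lines are listed here with the adjusted p of the difference (edgeR quasi-likelihood F test, Benjamini-Hochberg adjustment over all genes tested). Among the 7 genes these were NXT2 (0.00118), GPER1 (0.00176), RASSF4 (0.00201) and HBEGF (0.0323). These tests use the changes that chose the genes, and GPER1 passed the filter on low counts through its decitabine libraries. The largest log2 change was that of PER-117 for NXT2 (1.77) and for HBEGF (4.41, against 2 DMSO reads), and that of Loucy for GPER1 (10.69, against 0 DMSO reads). For RASSF4 the level in PER-117 was at least 7.17-fold higher, a bound below the ratio of 7.94 in Loucy, so neither line can be put first. HBEGF lost this call when any of 7 libraries was left out, with an adjusted p of up to 0.0878 without PER-117 DMSO replicate 2, and the other 3 genes kept it without any single library.

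Among the genes beside the 7, the response differed for DEPP1 (0.000208), C10orf25 (0.0214) and ZFAND2A (0.027). DEPP1 passed the filter on low counts through its decitabine libraries, so its value is a description. Among the genes named from the lists it differed for NOTCH1 (0.000316), DDX39A (0.000568), RASSF1 (0.000836), CEBPA (0.0013), NEU1 (0.0119), RBPJ (0.0323) and HDAC2 (0.0459). NOTCH1 had a log2 change of 1.28 in MOLT-16 and -0.85 in TALL-1, and CEBPA of 6.07 in Loucy and -1.48 in TALL-1, which was 1.09 without the mixed libraries. Groups of 3 libraries are too small for a check of single outlying libraries.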

How the results depend on the processing

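The log2 changes of the 7 genes kept their direction in all 5 lines under the alternatives run, except that 6 of them could not be fitted with each line alone, where the filter dropped NKAPL and MCEMP1 in TALL-1, NKAPL and RENBP in MOLT-16, RENBP in Loucy and RASSF4 in PER-117. All 7 were called in all 5 lines with RLE size factors, DESeq2 and the unstranded column, 6 without the filter and 6 without the mixed libraries, 4 with a replicate block and 1 when each line was fitted alone (MOLT-16 alone called 1 of 7). The block cost MCEMP1 its call in TALL-1 (adjusted p = 0.124 by edgeR) and NKAPL (0.0513) and RENBP (0.0777) theirs in MOLT-16. In TALL-1 no decitabine library correlated best with its own number. In MOLT-16 each library correlated best with its own number (r = 0.20, 0.27 and 0.09), so pairing there is not settled. The block changed no other call of the 7. Leaving out each library gave 4 to 7 of the 7 over all lines, 4 to 6 in TALL-1, 4 to 7 in MOLT-16, 5 to 7 in PEER and 7 in Loucy and PER-117. Calls lost without a library of the same line were those of RASSF4 and RENBP in PEER, NKAPL, RASSF4 and MCEMP1 in TALL-1, and HBEGF, NKAPL, RASSF4 and RENBP in MOLT-16. Libraries of other lines also cost calls near the threshold: MCEMP1 in TALL-1 (13 libraries, adjusted p up to 0.056), NKAPL in MOLT-16 (5, up to 0.0524) and HBEGF in MOLT-16 (3, up to 0.0539). By more than 1.5-fold, single libraries also moved the log2 change of NKAPL in PEER (4.55 without DMSO replicate 1), TALL-1 (6.48 without DMSO replicate 3) and Loucy (4.98 without DMSO replicate 3), of GPER1 in PEER (3.18 without DMSO replicate 1, 4.47 without DMSO replicate 2) and MOLT-16 (4.80 without DMSO replicate 3), of HBEGF and MCEMP1 in PEER (3.21 and 3.23 without DMSO replicate 2), of MCEMP1 in TALL-1 (2.57 without DMSO replicate 2) and of RENBP in MOLT-16 (3.84 without DMSO replicate 3). Responses that differed between lines numbered 3 to 5 of the 7, and DMSO levels that differed 6. With DESeq2 the difference was also called for MCEMP1 (adjusted p = 0.0397).

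Counts over all genes moved more. Genes higher in all 5 lines, 10 as fitted, were 19 with DESeq2, 33 without the mixed libraries, 2 with lines fitted alone and 6 to 15 with single libraries left out. Genes higher in MOLT-16, 331 as fitted, were 652 without the filter, 1539 without the mixed libraries, 58 alone and 150 to 1139 with single libraries left out (1139 without DMSO replicate 3). Genes lower in MOLT-16, 152, were 284 with DESeq2, 374 without the filter, 1249 without the mixed libraries, 1 alone and 29 to 850 with single libraries left out. In PEER 534 genes were higher, 276 alone and 335 to 495 with single libraries left out, and 145 lower, 89 with RLE size factors, 247 without the filter, 30 alone and 34 to 132 with single libraries left out. Lower genes were 493 to 822 in TALL-1 (923 as fitted), 287 to 495 in Loucy (623) and 206 to 331 in PER-117 (477) with single libraries left out. Without the mixed libraries they were 1259 in Loucy and 881 in PER-117, and alone 1344 and 1390. The cause of these differences was not tested. Depth limits NKAPL, with 8 DMSO reads in all, and every fold against 0 to 3 reads.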
